A study of Mus musculus with 12 samples.

Results

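The genes described here are 10 G protein-coupled receptors of adipocytes that sense metabolites, hormones or purines, taken by symbol from 53379 genes counted by RNA sequencing in mouse interscapular brown fat. They are Hcar1, Hcar2, Sucnr1, Ffar4, Gipr, Lgr6, Adora1, Adora2a, P2ry1 and Gpr3, and each symbol matched 1 Ensembl ID of the count files. The study compared 4 groups of 3 pools, all from C57BL/6 mice aged 12 weeks and killed at zeitgeber time 9. The groups were mice with Cdk7 deleted in brown fat (Cdk7 bKO, here KO) after 6 h of cold with food, control littermates labelled wild type (WT) after the same cold, KO at room temperature and WT at room temperature. Each pool held RNA of 2 mice of 1 group, 250 ng from each. Cdk7 is a kinase of the general transcription factor TFIIH that phosphorylates RNA polymerase II and activates cell cycle kinases. The promoter that drove the deletion and the temperature of the cold are not given in the sources used here, and the labels call the pools biological triplicates.

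In fat cells these receptors couple signals from outside the cell to lipolysis and heat production. Receptors that act through the inhibitory G protein, among them those for lactate, beta-hydroxybutyrate and adenosine at the A1 receptor, lower cAMP and restrain lipolysis. Receptors that act through the stimulatory G protein, among them the GIP receptor, the adenosine receptor Adora2a and the constitutively active Gpr3, raise cAMP, the second messenger through which noradrenaline switches on thermogenesis in brown fat.

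Libraries held 27609717 to 36792555 counts in genes. Levels are given as CPM, counts scaled to the size of each library with TMM factors. Tests are edgeR's quasi-likelihood test over 15208 genes with Benjamini-Hochberg adjustment, and a gene is said to rise, fall or be called where adjusted p was below 0.05. Log2 fold changes are printed ± their standard error and levels ± the SD over pools, with n = 3 per group. Cdk7 averaged 5.21 ± 0.309 CPM in KO and 16.6 ± 1.2 CPM in WT in the cold, and 5.09 ± 0.712 CPM in KO and 15.9 ± 0.72 CPM in WT at room temperature. The tissue label was checked with Ucp1, which ran from 3610 to 17500 CPM, and with Adipoq, from 482 to 769 CPM. Skeletal muscle transcripts varied within groups: their 12 markers summed to 20.4 to 255 CPM in KO and 2.18 to 101 CPM in WT in the cold, and to 4.62 to 1250 CPM in KO and 14.2 to 848 CPM in WT at room temperature. Without the richest pools, WT room temperature replicate 2 and KO room temperature replicate 6, 3 receptor calls ended: Adora1 for KO against WT at room temperature (-0.39, adjusted p = 0.17), Ffar4 for cold in WT (1.16, adjusted p = 0.12) and P2ry1 for cold in KO (-1.29, adjusted p = 0.068). Brown adipocyte markers, 8 in all, summed to 7520 to 8320 CPM in KO and 21100 to 23900 CPM in WT in the cold. At room temperature they summed to 6570 to 7690 CPM in KO and 9610 to 12500 CPM in WT. Ucp1 was the largest part of each sum, with means of 4070 CPM in KO and 16100 CPM in WT in the cold. Cox8b averaged 467 CPM in KO and 462 CPM in WT there. Of the 8 markers, 5 were called lower in KO and 0 higher at each temperature. Over all genes 27.8% were lower in the cold and 21.0% at room temperature. In pooled tissue, fewer cells of a type and less RNA per cell cannot be told apart.

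The genes were selected on earlier results of these data as well as on their function. Among the known values were those of Lgr6 for KO against WT in the cold and of P2ry1 for KO against WT at room temperature, which are given below without a test, as are the differences of cold responses that contain them. Which other values were in view is not recorded, so the adjusted p of the remaining values place each gene in the fit of all genes and are not independent evidence about the list. Comparisons that share a group also share its 3 pools. All 10 genes passed the filter on low counts. Gpr3 passed it through the WT pools in the cold, where 3 of 3 were above the minimum, with 1 of 3 in KO in the cold and 0 of 6 at room temperature, so a difference was built into its passing and the values that involve cold WT are given without a test.

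Loss of Cdk7 was accompanied by both higher and lower receptor transcripts, and Hcar1 was on opposite sides at the 2 temperatures. In the cold, of 8 receptors given a test, 4 were called higher in KO (Hcar1, Hcar2, Gipr and Sucnr1) and 2 lower (Ffar4 and P2ry1), where 53.7% of all genes tested were called, 25.9% higher and 27.8% lower. At room temperature, of 9 given a test, Gipr was called higher in KO and Lgr6, Hcar1 and Adora1 lower, where 40.4% of all genes were called, 19.3% higher and 21.0% lower. The median log2 fold change of these genes was 0.46 in the cold and -0.15 at room temperature, against 0.01 and 0 over all genes tested. The pools of KO and WT did not overlap for 6 of those 8 genes in the cold, as for 62.7% of all genes, and for 4 of those 9 at room temperature, as for 48.8% of all genes. Since results were in view when the 10 genes were chosen, nothing is read from these shares.

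**Figure D1:**
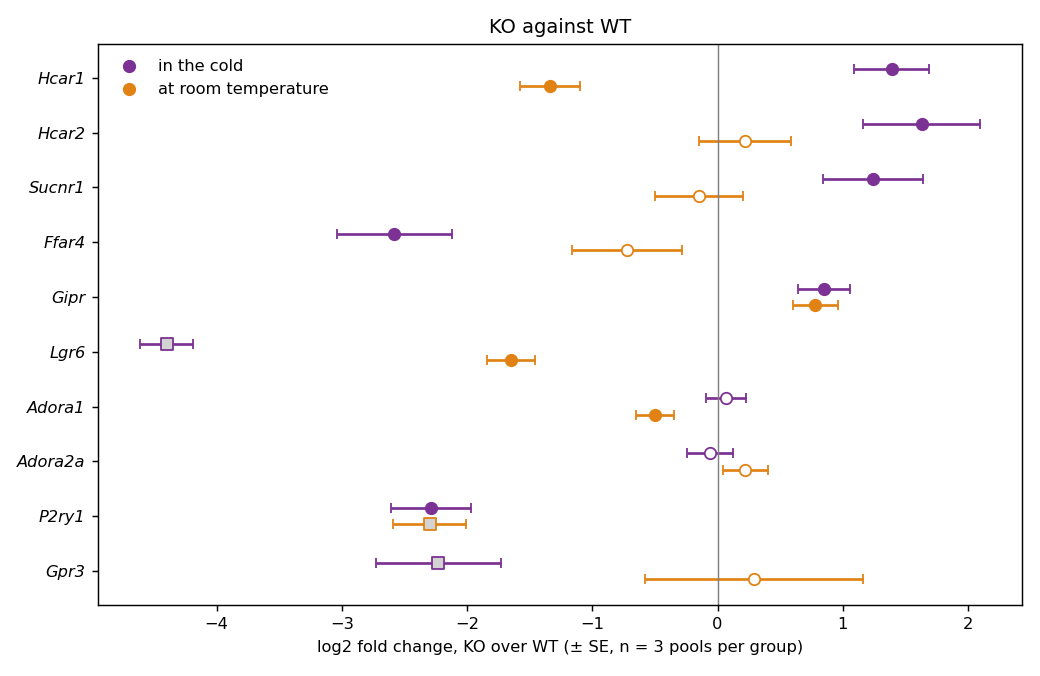
Log2 fold change of each receptor gene for KO over WT (x axis, with SE, 3 pools per group), in the cold (purple) and at room temperature (orange); filled points had an adjusted p below 0.05 and grey squares are given without a test. Hcar1 lay at 1.39 in the cold and -1.34 at room temperature, Lgr6 at -4.4 and -1.65, while P2ry1 (-2.29 and -2.3) and Gipr (0.85 and 0.78) were nearly the same at both.

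Cold and room temperature were also compared within each genotype. In KO 6 receptors fell (Hcar1, Hcar2, Gipr, Lgr6, P2ry1 and Adora1) and the other 4 did not pass, where 14.8% of all genes were called, 7.29% higher and 7.56% lower. In WT, of 9 given a test, 6 fell (Hcar1, Hcar2, Sucnr1, Gipr, Adora1 and P2ry1) and 3 rose (Lgr6, Ffar4 and Adora2a), where 46.3% of all genes were called, 23.0% higher and 23.2% lower. Cold and room temperature pools did not overlap for 6 of the 10 genes in KO, as for 32.8% of all genes, and for 9 of those 9 in WT, as for 55.4%. Medians of their log2 fold changes were -0.98 in KO and -1.36 in WT, against -0.02 and -0.03 over all genes tested. As for genotype, nothing is read from these shares or medians, since results were in view when the genes were chosen. The difference between both cold responses, KO minus WT, was called for Hcar1 (2.73 ± 0.38, adjusted p = 0.00083) among 7 genes given a test, where 23.5% of all genes were called, 10.6% higher and 12.9% lower. For Lgr6 it was -2.76 ± 0.27, which contains the value known when the gene was chosen.

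**Figure D2:**
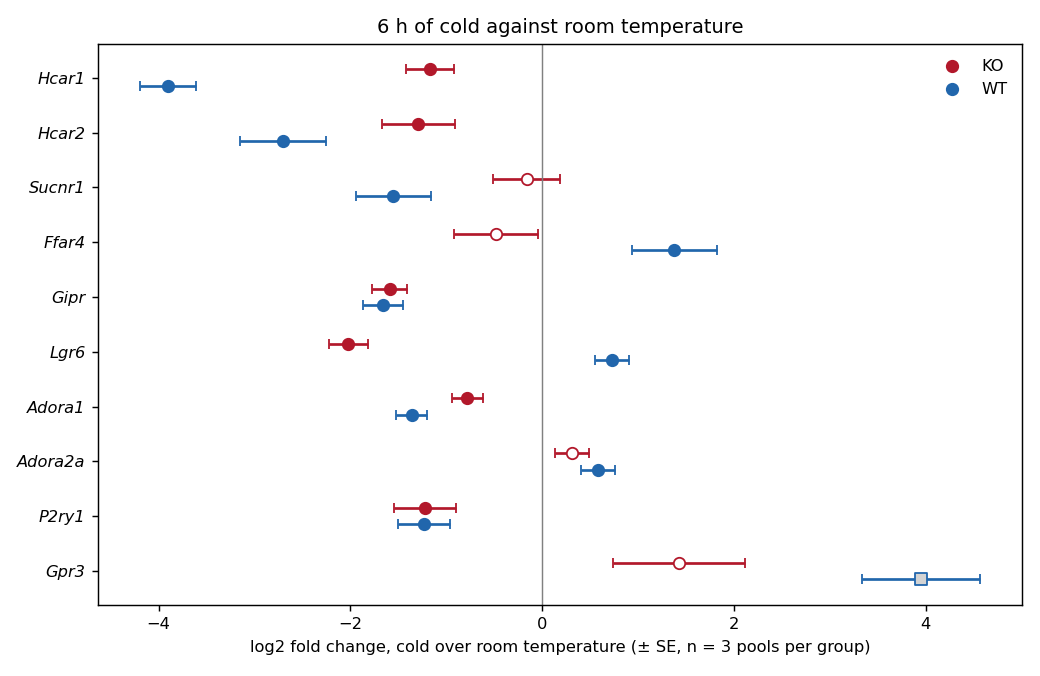
Log2 fold change of each receptor gene for 6 h of cold over room temperature (x axis, with SE, 3 pools per group), in KO (red) and WT (blue); filled points had an adjusted p below 0.05 and the grey square is given without a test. Lgr6 lay at -2.02 in KO and 0.73 in WT, and Hcar1 at -1.17 in KO and -3.9 in WT, while Gipr (-1.59 and -1.66) and P2ry1 (-1.22 and -1.23) were alike.

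Hcar1, the lactate receptor GPR81 that restrains lipolysis (ENSMUSG00000049241, GRCm38 chromosome 5, 123876736 to 123880020, minus strand), is a gene of 1 exon of 3285 bases. Its KO pools in the cold had 4.63, 6.29 and 5.83 CPM, against 1.24, 1.77 and 3.31 CPM in WT in the cold. At room temperature the KO pools had 15.7, 10.2 and 11.7 CPM, against 32.7, 33.6 and 29.1 CPM in WT. KO pools were thus all above WT in the cold and all below WT at room temperature, with no overlap in either case. The gene was 2.63-fold higher in KO in the cold (1.39 ± 0.3, adjusted p = 0.0025) and 2.53-fold lower at room temperature (-1.34 ± 0.24, adjusted p = 0.0014). Cold lowered it 2.25-fold in KO (-1.17 ± 0.25, adjusted p = 0.012) and 15.0-fold in WT (-3.9 ± 0.29, adjusted p = 1.8e-06). The fall in KO missed the threshold without KO cold replicate 1 (-1.05, adjusted p = 0.061).

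Hcar2, the receptor GPR109A for beta-hydroxybutyrate and nicotinic acid (ENSMUSG00000045502, chromosome 5, 123863570 to 123865499, minus strand), lies 11.2 kb from Hcar1 with no protein-coding gene between them. The KO pools in the cold had 1.69, 1.55 and 2.25 CPM, against 0.562, 0.227 and 0.931 CPM in WT in the cold. At room temperature the KO pools had 5.69, 4 and 3.65 CPM, against 2.76, 6.2 and 2.51 CPM in WT. Both genotypes were lower in the cold without overlap, and genotypes overlapped at room temperature because WT replicate 2 was the highest pool of all. In the cold Hcar2 was 3.09-fold higher in KO (1.63 ± 0.47, adjusted p = 0.012), and at room temperature it did not pass (0.22 ± 0.37, adjusted p = 0.68). It fell 2.44-fold with cold in KO (-1.29 ± 0.38, adjusted p = 0.043) and 6.5-fold in WT (-2.7 ± 0.45, adjusted p = 0.00045). The difference of both falls did not pass (1.41 ± 0.6, adjusted p = 0.11), and it passed with DESeq2 (1.43, adjusted p = 0.031), with no filter beyond 1 count and without WT cold replicate 3 (1.95, adjusted p = 0.049). The fall in KO missed the threshold in 8 of 21 alternatives, among them the omission of any 1 of the 6 KO pools, with adjusted p up to 0.15.

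Sucnr1, the succinate receptor GPR91 (ENSMUSG00000027762, chromosome 3, 60081869 to 60087566, plus strand), was a rare transcript with 8 to 96 counts per pool. The cold KO pools had 2.43, 1.14 and 1.6 CPM, against 0.825, 0.363 and 0.968 CPM in the cold WT pools. At room temperature the values were 2.02, 2.61 and 1.14 CPM in KO, against 1.46, 2.39 and 2.53 CPM in WT. The WT pools in the cold were the only group apart from the others, and KO pools overlapped between temperatures. Sucnr1 was 2.36-fold higher in KO in the cold (1.24 ± 0.4, adjusted p = 0.017), a call that ended without WT cold replicate 2 (0.95, adjusted p = 0.064) and also without replicate 1 of KO in the cold, where it was 0.9 (adjusted p = 0.084). At room temperature the genotypes did not pass (-0.15 ± 0.35, adjusted p = 0.76). Cold left a value of -0.16 ± 0.35 in KO (adjusted p = 0.82) and lowered Sucnr1 2.92-fold in WT (-1.55 ± 0.39, adjusted p = 0.0049). The difference did not pass (1.39 ± 0.53, adjusted p = 0.071), and passed with DESeq2 (1.39, adjusted p = 0.042) and limma voom (1.8, adjusted p = 0.023).

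Hcar2 and Sucnr1 are also transcribed in macrophages, and macrophage markers were higher in KO at both temperatures. Of 12 macrophage markers 11 were called higher in KO in the cold and 11 at room temperature. Over all genes 25.9% were higher in the cold and 19.3% at room temperature. The summed level of the 12 markers was 311 to 417 CPM in KO and 120 to 131 CPM in WT in the cold. At room temperature it was 253 to 322 CPM in KO and 83.9 to 111 CPM in WT. No macrophage marker was at 0 in any pool. With cold 6 of the 12 rose in KO and 4 in WT, where 7.29% and 23.0% of all genes rose. Neutrophil markers, a second source of Hcar2, summed to 0.154 to 0.885 CPM in KO and 0.3 to 0.635 CPM in WT in the cold, and to 0.619 to 2.46 CPM in KO and 0.268 to 0.626 CPM in WT at room temperature, and Ly6g had 0 counts in 11 of 12 pools. The part of these cells in the receptor differences was not tested.

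Ffar4, the receptor GPR120 for long-chain fatty acids (ENSMUSG00000054200, chromosome 19, 38097071 to 38114263, plus strand), had the largest level per length of the 10 genes in all 4 groups. The cold KO pools had 22.5, 15.8 and 32.6 CPM, against 124, 185 and 114 CPM in the cold WT pools. Room temperature gave 46.5, 27.5 and 24.5 CPM in KO, against 87.1, 36.6 and 39.1 CPM in WT. The cold WT pools stood above all others, and at room temperature WT replicate 1 was far above the other WT pools while the genotypes overlapped. Ffar4 was 5.97-fold lower in KO in the cold (-2.58 ± 0.46, adjusted p = 0.0017) and did not pass at room temperature (-0.72 ± 0.44, adjusted p = 0.23), where it was called with no filter beyond 1 count (-0.74, adjusted p = 2.2e-11). With cold it did not pass in KO (-0.48 ± 0.44, adjusted p = 0.53, but -0.45 and 0.00036 with no filter beyond 1 count) and rose 2.6-fold in WT (1.38 ± 0.44, adjusted p = 0.032). The rise in WT missed the threshold in 7 of 22 alternatives, among them the fit of only the libraries compared (adjusted p = 0.067) and the omission of WT room temperature replicate 2 or 3 or WT cold replicate 1 or 2. The difference of cold responses did not pass (-1.86 ± 0.62, adjusted p = 0.065), and it passed with no filter beyond 1 count (-1.81, adjusted p = 5.9e-32), without WT room temperature replicate 1 (-2.36, adjusted p = 0.017), with DESeq2 (-1.85, adjusted p = 0.021) and with limma voom (-2.3, adjusted p = 0.01). The fit with no filter gave far smaller adjusted p than the main fit at nearly the same fold changes. For KO against WT at room temperature they were 2.2e-11 and 0.23. The p-values of the fit with no filter are therefore not relied on.

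Gipr, the receptor of the gut hormone GIP (ENSMUSG00000030406, chromosome 7, 19156061 to 19166127, minus strand), was shifted by genotype and by cold to about the same degree in each background. Its cold KO pools had 1.49, 1.9 and 1.57 CPM, against 1.01, 0.908 and 0.819 CPM in the cold WT pools. The room temperature values were 5.64, 5.05 and 4.21 CPM in KO, against 3.11, 2.42 and 3.16 CPM in WT. All 4 groups were separate, KO above WT at each temperature and cold below room temperature in each genotype. Gipr was 1.81-fold higher in KO in the cold (0.85 ± 0.21, adjusted p = 0.0028) and 1.72-fold higher at room temperature (0.78 ± 0.18, adjusted p = 0.0024). Cold lowered it 3.0-fold in KO (-1.59 ± 0.18, adjusted p = 3.2e-05) and 3.16-fold in WT (-1.66 ± 0.21, adjusted p = 6.7e-06), and the difference was 0.07 ± 0.27 (adjusted p = 0.88). All 4 calls held under every alternative tried.

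Lgr6, a receptor for R-spondins, the secreted proteins that strengthen Wnt signalling (ENSMUSG00000042793, chromosome 1, 134983301 to 135105276, minus strand), had the largest genotype difference of the 10 genes in the cold, the value known when it was chosen. Its cold KO pools had 9.76, 8.38 and 14.6 CPM, against 238, 261 and 192 CPM in the cold WT pools. At room temperature the KO pools had 48.3, 48.9 and 35.5 CPM, against 136, 141 and 139 CPM in WT. The groups did not overlap anywhere, and the order was cold KO, room temperature KO, room temperature WT and cold WT. The KO level in the cold was 4.74% of WT (-4.4 ± 0.21), and at room temperature it was 31.9% of WT (-1.65 ± 0.19, adjusted p = 4.8e-05). Cold lowered Lgr6 4.07-fold in KO (-2.02 ± 0.2, adjusted p = 6.6e-05) and raised it 1.66-fold in WT (0.73 ± 0.18, adjusted p = 0.0064). Both cold responses kept their call and their sign under every alternative tried, with -2.28 to -1.87 in KO and 0.53 to 0.85 in WT. They share their cold pools with the value known when the gene was chosen, so they are not independent of that choice.

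Adora1, the adenosine A1 receptor that inhibits lipolysis (ENSMUSG00000042429, chromosome 1, 134199223 to 134235431, minus strand), had 33, 29.4 and 44.4 CPM in the cold KO pools, against 29.6, 40.5 and 31.4 CPM in the cold WT pools. The room temperature pools had 67.2, 58 and 57.8 CPM in KO, against 74.3, 95.2 and 89.8 CPM in WT. Genotypes overlapped in the cold, and every cold pool was below every room temperature pool. In the cold KO and WT did not pass (0.07 ± 0.16, adjusted p = 0.71), and at room temperature Adora1 was 1.42-fold lower in KO (-0.5 ± 0.15, adjusted p = 0.02). That call missed the threshold in 6 of 21 alternatives, including library totals alone (-0.3, adjusted p = 0.13) and the omission of WT room temperature replicate 2 or 3 or KO room temperature replicate 5 or 6. Adora1 fell 1.72-fold with cold in KO (-0.78 ± 0.16, adjusted p = 0.0056) and 2.56-fold in WT (-1.36 ± 0.16, adjusted p = 1.7e-05), both under every alternative tried, and the difference did not pass (0.58 ± 0.22, adjusted p = 0.077, or 0.035 with DESeq2). The difference did not pass in 14 of 20 alternatives and passed in the others, DESeq2 among them. With library totals alone Adora1 was higher in KO in the cold (0.51, adjusted p = 0.0096). Mybph, on the opposite strand, overlaps its 3′ end and had 48 counts over all pools.

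Adora2a, the adenosine receptor that raises cAMP through the stimulatory G protein (ENSMUSG00000020178, chromosome 10, 75316877 to 75334784, plus strand), was the steadiest of the 10. The cold KO pools had 12.3, 13.9 and 19.1 CPM, against 15.3, 15.1 and 16.7 CPM in the cold WT pools. At room temperature KO pools had 13, 13.7 and 9.72 CPM, against 13, 9.07 and 9.42 CPM in WT. Of the pairs of groups compared, only cold and room temperature WT did not overlap. No genotype difference passed, with -0.06 ± 0.18 in the cold (adjusted p = 0.79) and 0.22 ± 0.18 at room temperature (adjusted p = 0.36), but with library totals alone Adora2a was higher in KO in the cold (0.37, adjusted p = 0.044) and at room temperature (0.45, adjusted p = 0.027). Cold did not pass in KO (0.31 ± 0.18, adjusted p = 0.27) and raised it 1.5-fold in WT (0.58 ± 0.18, adjusted p = 0.016), a call that ended without WT room temperature replicate 2 or 3 (0.49 and 0.51, adjusted p = 0.071 each) or WT cold replicate 3 (0.54, adjusted p = 0.058). Adora2a is also made by endothelial cells, whose 8 markers summed to 728 to 856 CPM in KO and 646 to 661 CPM in WT in the cold. At room temperature they summed to 735 to 747 CPM in KO and 505 to 608 CPM in WT. At each temperature 7 of the 8 were called higher in KO. Over all genes 25.9% were higher in the cold and 19.3% at room temperature. The part of endothelial cells in the Adora2a values was not tested.

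P2ry1, a receptor for ADP that signals through calcium (ENSMUSG00000027765, chromosome 3, 61002795 to 61008982, plus strand), was lower in KO by a similar fold in both conditions. In the cold the KO pools had 0.91, 1.25 and 1.42 CPM, against 4.76, 5.85 and 6.82 CPM in WT. At room temperature the KO pools had 3.78, 1.97 and 2.51 CPM, against 8.47, 15.1 and 17.2 CPM in WT. KO pools were below WT pools without overlap, and cold pools were below room temperature pools in each genotype. The KO level was 20.5% of WT in the cold (-2.29 ± 0.32, adjusted p = 7.8e-05) and 20.2% of WT at room temperature (-2.3 ± 0.29, a value known when the gene was chosen). Cold lowered P2ry1 2.33-fold in KO (-1.22 ± 0.32, adjusted p = 0.024) and 2.35-fold in WT (-1.23 ± 0.27, adjusted p = 0.0029), and the difference was 0.01. The fall in KO missed the threshold without KO room temperature replicate 4 (-0.92, adjusted p = 0.096) or 6 (-1.29, adjusted p = 0.058) and without KO cold replicate 1 (-1.05, adjusted p = 0.11) or 2 (-1.26, adjusted p = 0.075). An antisense gene, Gm37035, overlaps its 5′ end and had 8 counts over all pools.

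Gpr3, an orphan receptor that stimulates cAMP production without a ligand and is known in mice for its induction by cold in brown fat (ENSMUSG00000049649, chromosome 4, 133209340 to 133212536, minus strand), had the lowest mean RPKM of the list in every group but cold WT. In raw counts the cold KO pools had 20, 6 and 5 reads, against 32, 46 and 20 reads in the cold WT pools. The room temperature pools had 3, 6 and 1 reads in KO, against 4, 1 and 3 reads in WT. In CPM, cold KO had 0.506, 0.163 and 0.154, cold WT 1.2, 2.09 and 0.745, room temperature KO 0.0821, 0.191 and 0.0326, and room temperature WT 0.153, 0.0284 and 0.0817. Cold WT stood above all other pools, the KO pools overlapped between temperatures, and KO replicate 1 was the highest KO pool in the cold. The fitted value for KO against WT was -2.23 ± 0.5 in the cold, given without a test, and at room temperature it did not pass (0.29 ± 0.87, adjusted p = 0.82). Over the group sums, 31 reads in cold KO against 10 in room temperature KO gave a ratio of 2.81. Its exact 95% interval of 1.34 to 6.43 covers counting error only and leaves out the spread between pools. In WT, 98 reads in the cold against 8 at room temperature gave a ratio of 15.9. No interval is given there, because cold WT carried Gpr3 past the filter. In the fit cold did not pass in KO (1.43 ± 0.69, adjusted p = 0.18), and the fitted value was 3.95 ± 0.62 in WT, given without a test. The difference of cold responses was -2.51 ± 1.04, or -3.32 without KO cold replicate 1. Cd164l2 overlaps the 5′ end of Gpr3 on the opposite strand and had 8 to 26 counts per pool in cold KO, 14 to 29 in cold WT, 7 to 18 in room temperature KO and 12 to 20 in room temperature WT, so the Gpr3 values are uncertain.

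RefSeq promoter windows (GRCm38.p6) were held for 7 of the 10 genes, in 8 windows, and the 250 bases before the start site were searched on both strands. The letters searched were TGACGTCA, the cAMP response element bound by CREB, its first bases TGACG, which the full element contains, TCAAGGTCA, bound by estrogen-related receptors, the E-box CACGTG and the TATA box TATAAA. They occur in 1.56%, 17.9%, 0.375%, 6.04% and 12.3% of 32536 windows of that length. Of the 8 receptor windows, that of Gpr3 held TGACG 2 times on the opposite strand, starting 196 and 40 bases before the start site, and 3.92% of all windows hold it 2 or more times. No other match was found in the 8 windows, which says only that these letters are not in them. The windows of Gpr3 and Lgr6 are printed because all cold WT pools of both genes lay above all their room temperature WT pools, which the KO pools did not show. Ffar4 and Adora2a had the same pattern. The Ffar4 window is not printed because it overlaps the annotated Ffar4 gene, and no window was held for Adora2a. The Gpr3 window lies within the annotated span of Cd164l2, which is on the opposite strand. Each printed window runs 5′ to 3′ along its receptor gene, with capitals for the matches (Gpr3, chr4:133212537-133212786, minus strand, and Lgr6, chr1:135105277-135105526, minus strand, which has none).
Gpr3: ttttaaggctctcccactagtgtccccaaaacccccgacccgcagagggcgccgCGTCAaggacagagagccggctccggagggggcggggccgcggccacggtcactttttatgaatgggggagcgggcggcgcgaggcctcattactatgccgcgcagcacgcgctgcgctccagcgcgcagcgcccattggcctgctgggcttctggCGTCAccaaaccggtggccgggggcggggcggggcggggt
Lgr6: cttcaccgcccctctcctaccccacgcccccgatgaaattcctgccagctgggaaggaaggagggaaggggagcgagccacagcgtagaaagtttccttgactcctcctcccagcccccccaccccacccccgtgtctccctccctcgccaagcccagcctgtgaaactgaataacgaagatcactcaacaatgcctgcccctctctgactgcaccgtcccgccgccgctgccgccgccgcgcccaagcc

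**Figure D3:**
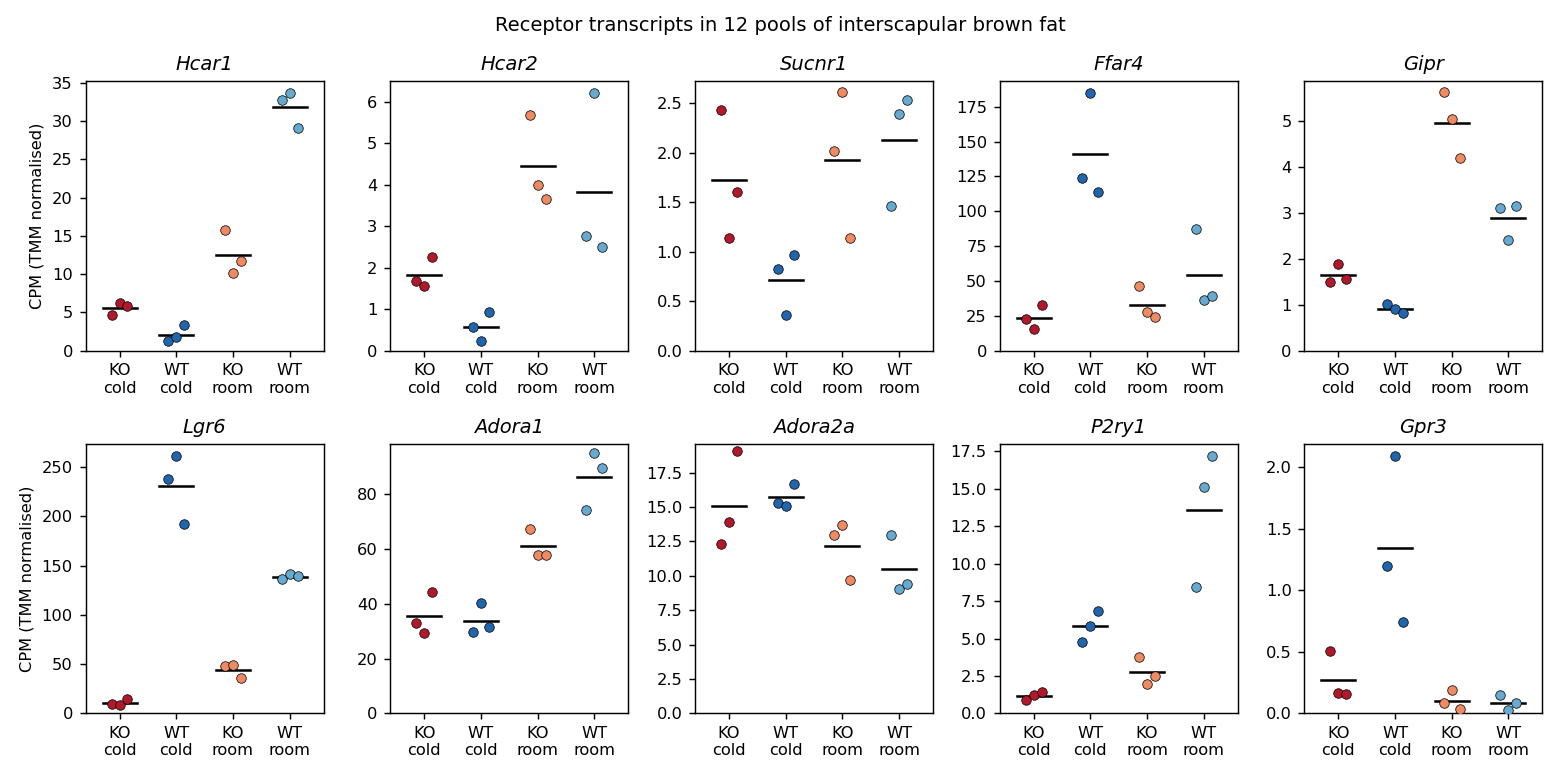
CPM of each receptor gene (y axes, each from 0) in the 12 pools of brown fat, with 3 points per group and a bar at the group mean; groups run from KO cold and WT cold to KO and WT at room temperature. Cold WT pools were the highest for Lgr6 (192 to 261), Ffar4 (114 to 185) and Gpr3 (0.745 to 2.09), and the lowest for Hcar1 (1.24 to 3.31), Hcar2, Gipr and Sucnr1.

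Per kilobase of exon (RPKM), the receptors spanned a wide range, and their order changed with genotype and cold. In cold KO the order of mean RPKM was Ffar4 (16.9), Adora1 (6.15), Adora2a (4.92), Hcar1 (1.7), Lgr6 (1.59), Sucnr1 (1.05), Hcar2 (0.948), Gipr (0.475), P2ry1 (0.278) and Gpr3 (0.1). The pools of Adora1 and Adora2a overlapped there, as did neighbouring genes from Hcar1 to Hcar2. In cold WT the order was Ffar4 (101), Lgr6 (33.6), Adora1 (5.85), Adora2a (5.12), P2ry1 (1.35), Hcar1 (0.641), Gpr3 (0.492), Sucnr1 (0.438), Hcar2 (0.297) and Gipr (0.262). Again Adora1 overlapped Adora2a, and each neighbour from Hcar1 down to Gipr overlapped the next. Lgr6 thus ranked 5 of 10 in cold KO and 2 of 10 in cold WT. In room temperature KO the order was Ffar4 (23.4), Adora1 (10.5), Lgr6 (6.46), Adora2a (3.97), Hcar1 (3.81), Hcar2 (2.31), Gipr (1.43), Sucnr1 (1.17), P2ry1 (0.641) and Gpr3 (0.0372), with overlap of Adora2a with Hcar1, Gipr with Sucnr1 and Sucnr1 with P2ry1. In room temperature WT it was Ffar4 (38.8), Lgr6 (20.2), Adora1 (14.9), Hcar1 (9.67), Adora2a (3.43), P2ry1 (3.17), Hcar2 (1.98), Sucnr1 (1.3), Gipr (0.831) and Gpr3 (0.0321), and neighbours from Adora2a to Gipr overlapped.

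**Figure D4:**
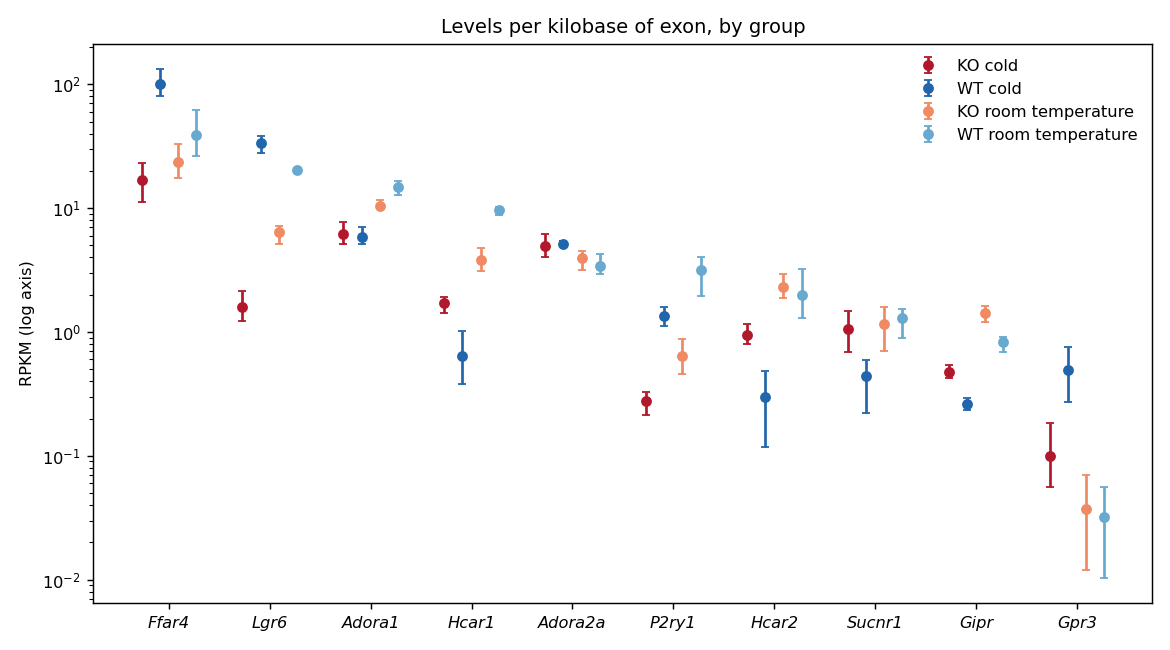
Mean RPKM of each receptor gene by group on a log axis, with bars from the lowest to the highest of 3 pools. Lgr6 lay at 1.59 in cold KO and 33.6 in cold WT, and Ffar4 was the highest of the 10 in every group (16.9 to 101).

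Over the 12 libraries the 10 genes formed no single pattern, and the following correlations of log2 CPM are descriptions in which group differences and shared library scaling enter. Among Hcar1, Hcar2, Gipr, Adora1 and Sucnr1, Pearson's r ran from 0.53 for Adora1 with Sucnr1 to 0.89 for Hcar1 with Adora1, and Adora1 also had 0.6 with P2ry1. Lgr6 had 0.85 with P2ry1 and 0.84 with Ffar4, which had 0.54 with each other, and Gpr3 ran opposite to Hcar2 (-0.92) and Hcar1 (-0.87). Among 11171 other genes with an official symbol and an average log2 CPM no lower than 0, the patterns most like Hcar1 were those of Zfyve21 (0.984), Pou6f1 (0.983) and Zmym3 (0.98). For Lgr6 they were Slc6a19 (0.981), Slc25a42 (0.98) and Optn (0.979). P2ry1 was most like Fam228b (0.986), Sirt3 (0.986) and Metap1d (0.984), Ffar4 like Ndufb9 (0.982), Ccdc91 (0.973) and Ing3 (0.972), and Gpr3 like Cln8 (0.965), Dck (0.958) and Plekhm3 (0.957). Gipr was most like Smoc1 (0.954), Hcar2 like Sspo (0.978), Adora1 like Tspan18 (0.975), Sucnr1 like Zfp820 (0.958) and Adora2a like Cd3eap (0.92). Lgr6 and Adora1 lie 748 kb apart on chromosome 1 with 13 protein-coding genes between them, and P2ry1 and Sucnr1 lie 915 kb apart on chromosome 3.

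Relatives of these receptors were measured from a list of 20, of which 8 passed the filter. In the cold 3 were called higher and 2 lower in KO, and at room temperature 3 were called higher while the other 5 did not pass, beside 53.7% and 40.4% of all genes called. Gcgr and P2ry13, among these 8, had 2 to 6 and 2 to 9 reads per pool in room temperature WT. KO pools carried both past the filter, so a higher KO value was built in for them and nothing is read from these counts. Lgr4, the more widely expressed R-spondin receptor, averaged 23.4 ± 2.46 CPM in KO and 42.4 ± 8.11 CPM in WT in the cold (-0.85 ± 0.12, adjusted p = 2.5e-05), and 19.2 ± 1.46 CPM in KO and 20.8 ± 1.05 CPM in WT at room temperature, which did not pass. Like Lgr6 it rose with cold in WT (1.03 ± 0.12, adjusted p = 4.7e-06). Unlike Lgr6 it did not fall with cold in KO, where it averaged 23.4 CPM in the cold and 19.2 CPM at room temperature. The difference of cold responses was called (-0.74 ± 0.17, adjusted p = 0.0058). P2ry2, an ATP and UTP receptor, was lower in KO in the cold (-1.59 ± 0.2), at 3.35 ± 0.543 CPM in KO and 10.1 ± 2.48 CPM in WT. P2ry6, a UDP receptor found on macrophages, was higher in KO in the cold (1.13 ± 0.2) and at room temperature (1.48 ± 0.2), and so was Ffar2, a short-chain fatty acid receptor (2.72 ± 0.43 and 1.23 ± 0.32), beside the macrophage marker sums given above. Ffar2 had 37 to 60 reads per pool in cold KO and only 4 to 6 in cold WT, so its fold in the cold is uncertain.

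Genes that supply or clear the ligands were taken from lists of pathway genes, whose counts stand beside 53.7% of all genes called in the cold and 40.4% at room temperature. Of 9 tested purine genes 5 were higher and 3 lower in KO in the cold, and 5 and 2 at room temperature. Slc29a1, which carries adenosine across the plasma membrane, averaged 22 ± 1.24 CPM in KO and 124 ± 20.1 CPM in WT in the cold (-2.49 ± 0.11, adjusted p = 2.7e-10), and 30 ± 1.64 CPM in KO and 70.7 ± 6.1 CPM in WT at room temperature (-1.24 ± 0.11, adjusted p = 3.5e-07). Entpd1, which hydrolyses ATP and ADP outside cells, was higher in KO at both (0.9 ± 0.1 and 0.94 ± 0.1). Nt5e, which makes adenosine from AMP, had a called difference of cold responses (2.43 ± 0.56, adjusted p = 0.0057), with 0.79 ± 0.37 in KO, which did not pass, and a fall of -1.64 ± 0.41 in WT. Among 8 genes of lactate and ketone handling 1 was higher and 4 lower in KO in the cold, and 2 and 2 at room temperature. Bdh1, the dehydrogenase of beta-hydroxybutyrate, had 6 to 7 reads per pool in KO and 1 to 6 in WT at room temperature. Only its cold pools carried it past the filter, so its cold responses are given without a test. They were 3.08 ± 0.38 in KO, with 1.66 ± 0.427 CPM in the cold and 0.194 ± 0.0322 CPM at room temperature. In WT the value was 5.18 ± 0.41, with 3.86 ± 1.27 CPM in the cold and 0.104 ± 0.0723 CPM at room temperature. Oxct1, which uses ketone bodies, was lower in KO in the cold (-1.19 ± 0.17) and at room temperature (-1.53 ± 0.17).

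Of 7 succinate genes 6 were lower in KO at room temperature, where 21.0% of all genes were lower, among them Sdhb (-0.55 ± 0.09) and Sucla2 (-0.56 ± 0.11). In the cold 1 was higher, Suclg2 (0.46 ± 0.11), and 2 lower, Sdha and Sdhb (-0.39 ± 0.09 each). Of 3 R-spondin pathway genes that passed the filter, Rspo4, a ligand of Lgr6, was higher in KO in the cold (0.69 ± 0.28, adjusted p = 0.049) and at room temperature (1.29 ± 0.27, adjusted p = 0.0011). Rspo1, another ligand, had 15 to 28 reads per pool in KO and 5 to 9 in WT in the cold. At room temperature it had 19 to 22 reads in KO and 10 to 12 in WT. Its KO pools carried it past the filter, so its genotype values are given without a test. They were 0.99 ± 0.37 in the cold and 0.88 ± 0.34 at room temperature. Znrf3, a ubiquitin ligase that R-spondins clear from the cell surface, was lower, at 4.72 ± 0.259 CPM in KO and 10.4 ± 0.311 CPM in WT in the cold (-1.14 ± 0.11, adjusted p = 3.4e-07) and 5.67 ± 0.255 CPM in KO and 11.7 ± 0.309 CPM in WT at room temperature (-1.04 ± 0.1, adjusted p = 1.5e-06).

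Among 17 genes of G proteins and receptor desensitisation 4 were higher and 8 lower in KO in the cold, and 3 and 5 at room temperature, beside 53.7% and 40.4% of all genes called. Gnaz, 1 of the 17, had 5 to 8 reads per pool in cold WT and 6 to 13 in room temperature WT. It passed the filter through KO pools, so a higher KO value was built in for it. Gnao1, an inhibitory-type G protein subunit, averaged 27.8 ± 2.36 CPM in KO and 114 ± 24.9 CPM in WT in the cold (-2.03 ± 0.14, adjusted p = 1.2e-07), and 40.5 ± 2.72 CPM in KO and 70.1 ± 9.05 CPM in WT at room temperature (-0.79 ± 0.14, adjusted p = 0.00056). Like Lgr6 it fell with cold in KO (-0.54 ± 0.14, adjusted p = 0.02) and rose in WT (0.7 ± 0.14, adjusted p = 9e-04), with a called difference (-1.24 ± 0.2, adjusted p = 0.00076). Gnas, the stimulatory subunit, was lower in KO in the cold (-0.88 ± 0.13), and the arrestin Arrb2 was higher (0.97 ± 0.13). Of 18 other hormone receptors 10 were higher and 2 lower in KO in the cold, and 6 and 2 at room temperature, where all genes gave 25.9% higher and 27.8% lower in the cold and 19.3% higher and 21.0% lower at room temperature. Adra2a had 13 to 18 reads per pool in cold KO and 1 to 6 in cold WT. Bdkrb2 had 15 to 17 reads per pool in room temperature KO and 3 to 7 in room temperature WT. KO pools carried both past the filter, so those differences were built in. Nothing is read from the counts of this list or from its median given below. Adrb1, a beta-adrenergic receptor through which noradrenaline acts, was lower in KO in the cold, at 11.7 ± 1.59 CPM in KO and 36.9 ± 5.47 CPM in WT (-1.66 ± 0.16, adjusted p = 2.1e-06). So was Adrb3, the main beta-adrenergic receptor of mouse fat cells, at 31.1 ± 10 CPM in KO and 158 ± 21.3 CPM in WT (-2.34 ± 0.36, adjusted p = 0.00075), named after its values were seen. Higher in KO in the cold were Ednra, an endothelin receptor (1.07 ± 0.15), Agtr1a, an angiotensin receptor (0.73 ± 0.12), and Calcrl (0.75 ± 0.15), all found on vascular cells. Smooth muscle and pericyte markers, 7 in all, summed to 618 to 718 CPM in KO and 459 to 464 CPM in WT in the cold. At room temperature they summed to 648 to 730 CPM in KO and 520 to 573 CPM in WT. In KO 5 of the 7 were called higher at each temperature and 1 lower at room temperature, beside the shares of all genes given above. The part of vascular cells in these receptor values was not tested. Tshr, the thyrotropin receptor, rose with cold in WT (1.79 ± 0.23, adjusted p = 4.7e-05), and its cold response differed between genotypes (-1.45 ± 0.31, adjusted p = 0.0063). The median log2 fold change of these receptors for KO against WT was 0.6 in the cold and 0.14 at room temperature, against 0.01 and 0 over all genes.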

How the data were processed

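RNA of 12 pools was sequenced, 3 pools in each of 4 groups taken from the labels. The authors deposited raw counts per Ensembl gene, 1 file per pool, made with STAR and HTSeq on GRCm38 per the submitters' processing notes. Tool versions and library kit are not given in the sources used here. A reverse strand setting appears in the file names alone, so genes that overlap on the other strand are reported as uncertain. Of 53379 IDs, 53274 had a symbol in GENCODE's GRCm38 annotation. HTSeq's 5 summary lines entered neither library sizes nor tests. The largest, reads with several alignments, made up 26.6 to 30.2% of a file.

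Counts were fitted in R 4.3.3 with edgeR 4.0.16: filterByExpr by group kept 15208 genes and removed 38171, followed by TMM, 1 mean per group over 12 libraries, robust quasi-likelihood tests and Benjamini-Hochberg adjustment at 0.05. The fit was tested on simulated data. Standard errors are the log2 fold change over the square root of F and are unreliable near 0. RPKM divides CPM by the exon union. The p-values of the main fit measure the spread between pools. The 10 genes and all gene lists were chosen with earlier results of these data known. Named genes were the receptors, Cdk7 and Ucp1, up to 4 genes per list and comparison with the smallest p, and the 3 most correlated genes per receptor. Adipoq was added after its values were seen. Alternatives used DESeq2 1.42.0, limma 3.58.1, other scalings and filters, and omitted libraries.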

Additional observations from a re-analysis of the deposited data

Results flagged for a closer look

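Hcar1 was marked because its cold response differed between genotypes in the test of the difference itself (edgeR's quasi-likelihood test, adjusted over 15208 genes). The response in KO minus that in WT was 2.73 ± 0.38 (adjusted p = 0.00083): cold lowered it in both, by less in KO. Over 20 alternatives it ran from 2.45 to 3.26 and stayed past the threshold. Lgr6 was marked by the same rule, with a difference of -2.76 ± 0.27. Its p is not given and it is not read as a test. The difference contains the value of KO against WT in the cold that was known when the gene was chosen. Every cold KO pool of Lgr6 lay below every room temperature KO pool. Every cold WT pool lay above every room temperature WT pool.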

How the results depend on the processing

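Of 26 calls of single receptors, 19 held under every alternative tried and 7 ended under at least 1. Of 1053 values of all 10 genes under an alternative, 970 kept direction and side of the threshold, 32 lost the call, 25 gained it with the same sign and 26 changed sign. The cause of these changes was not tested. Over all genes, 6138 were called for KO against WT at room temperature, against 3566 when the 2 pools with the most skeletal muscle RNA were left out. For cold in KO 2258 were called, against 1476 with library totals alone, 4155 with limma voom and 1214 without those pools. For the difference of cold responses 3581 were called, against 1903 without them. Omitting 1 replicate at a time gave 1171 to 2568 genes for cold in KO, the lowest without KO cold replicate 1, with 1274 without KO cold replicate 2 and 1328 without KO room temperature replicate 6. Counts of receptors here are over all 10 genes, including values given without a test. The same omissions gave 2 to 4 receptors higher with cold in WT (2 without WT room temperature replicate 2 or 3), 3 to 6 lower with cold in KO (3 without KO cold replicate 1), and for the difference 1 to 3 higher and 1 to 2 lower.

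Library totals alone gave 2 receptors higher in KO at room temperature and 2 higher for the difference. The difference had 4 higher and 3 lower with no filter beyond 1 count, 4 and 2 with DESeq2, and 2 and 2 with limma voom. The p-values of the fit with no filter are not relied on, as described for Ffar4. Library totals also moved the median of all genes to 0.204 between genotypes at room temperature and 0.425 between them in the cold, to -0.221 between temperatures in WT and to 0.229 for the difference. The split of higher and lower calls became 4739 and 1267 at room temperature (2940 and 3198 with TMM), 7881 and 1073 in the cold (3939 and 4222), 1826 and 4813 for cold in WT (3503 and 3531), and 2388 and 711 for the difference (1614 and 1967).

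Sign changes concerned values that had not passed in the main fit. Adora2a in the cold with library totals alone both changed sign and passed (adjusted p = 0.044). At room temperature KO against WT was -0.02 for Gpr3 with limma voom, and for Sucnr1 0.04 with library totals and 0.19 without the muscle-rich libraries. In the cold it was -0.11 for Adora1 with limma voom, and for Adora2a 0.37 with library totals and 0.0 with a strict filter. The P2ry1 difference was -0.14 without the muscle-rich libraries. Omitting 1 replicate gave -0.03 to 0.76 for Hcar2, -0.45 to 0.82 for Gpr3 and -0.43 to 0.11 for Sucnr1 at room temperature, -0.12 to 0.23 for Adora1 and -0.27 to 0.07 for Adora2a in the cold, -0.49 to 0.12 for Sucnr1 with cold in KO, and -0.04 to 0.19 for Gipr and -0.18 to 0.31 for P2ry1 in the difference.

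The replicate numbers share only a number: deviations of same-numbered pools correlated at -0.279, -0.095 and -0.155 between KO and WT in the cold, and at 0.055, -0.183 and 0.227 between cold and room temperature in WT. With a replicate block, 7691 genes were called for KO against WT in the cold and 6671 for cold in WT, and among the receptors only the rise of Ffar4 in WT lost its call (1.46, adjusted p = 0.087). Room temperature KO pools carry other numbers and could not be blocked. Counting noise limits Gpr3, which had 1 to 46 reads per pool.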
